A study of Mus musculus with 8 samples.

Results

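The MiT/TFE family comprises the transcription factors Mitf, Tfeb, Tfec and Tfe3, and its transcripts were followed here in mouse macrophages lacking the Mediator kinases. The family was taken as the rows of the deposited gene table that carry these 4 symbols, so 4 of 34432 rows, and all 4 were among the 11675 genes abundant enough to be tested. The macrophages had been differentiated in culture from precursors of the bone marrow and were collected on day 7 of differentiation without further treatment, and their polyadenylated RNA was sequenced. The double knockout macrophages, 4 libraries, carried floxed Cdk8 on both alleles with Vav-iCre, a recombinase under the Vav promoter, and a null allele of Cdk19. The control macrophages, 4 libraries, carried the VAV-cre transgene, and recombinase driven by the Vav promoter was thus present in both groups. The Vav promoter is active in blood-forming cells and their descendants. The labels give no age and do not say whether the libraries of a group came from separate animals or cultures. Values are normalized read counts, and every fold change is double knockout over control on the log2(value + 1) scale.

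MiT/TFE proteins are basic helix-loop-helix leucine zipper factors that bind DNA as homodimers or as heterodimers with each other. They bind E-box elements, and near lysosomal genes such an element is called a CLEAR motif. In fed cells the kinase complex mTORC1, brought to the lysosome by Rag GTPases, phosphorylates Tfeb and Tfe3, which are then held in the cytosol by 14-3-3 proteins. When mTORC1 signalling falls or calcineurin removes the phosphates, the factors enter the nucleus and raise genes for lysosomes, the proton pump and autophagy. Their activity is thus known to be set largely at the level of the protein, which a transcript count does not read. Mitf is best known from melanocytes and osteoclasts, and Tfec from macrophages.

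The letters that these factors bind were looked up in promoter windows of RefSeq genes (build GRCm38.p6), each reaching from 250 bases before to 50 bases after a transcript start. Stretches of 6 named genes are shown, because the results on target genes below refer to them, with the E-box core CACGTG in capitals and the gene's own strand 5′ to 3′.
Rragc, chr4:123917311-123917336, + strand: tgattccgggCACGTGatagtaccac
Lamtor1, chr7:101905759-101905784, + strand: gccttcctatCACGTGccgcgggtcc
Gla, chrX:134601217-134601242, - strand: agcgattgatCACGTGagcatctacg
Clcn7, chr17:25133366-25133391, + strand: cgtcgtcagtCACGTGggcaccgatg
Atp6v0b, chr4:117887350-117887375, - strand: gcgcgggggtCACGTGgggtcggcgc
Nagpa, chr16:5204007-5204032, - strand: ggcctggaatCACGTGgggcgagccc
The cores shown begin 112 bases before the start in Rragc, 68 in Lamtor1, 227 in Gla, 15 in Clcn7, 36 in Atp6v0b and 10 in Nagpa. A further CACGTG in the same window begins 194 bases before the start in Gla and 18 before it in Atp6v0b. In Clcn7 a further core begins 7 bases after the start, and in Nagpa 5 bases after it. The M-box, the longer element that Mitf reads in pigment genes, is shown for Tyrp1, a melanin enzyme, with its core TCATGTG in capitals, 47 bases before the start.
Tyrp1, chr4:80834156-80834182, + strand: ggggagggagTCATGTGctgcctagta
Both cores were searched on both strands, and no stretch can match both. CACGTG, which reads the same on either strand, was in 7.15% of 32851 promoter windows, and TCATGTG in 3.77%. The factors' own genes had 9 windows in all, 3 for Mitf, 3 for Tfeb, 1 for Tfec and 2 for Tfe3, and neither core was in any of these 9. Of the 6 genes shown with CACGTG, Nagpa was called lower and the others higher. Over all genes tested, 22.9% were called higher. In the lists below, 13 of 17 lysosomal genes with CACGTG were higher, against 6 of 8 without it. Some genes, such as Clcn7, Mcoln1 and Rragc, are on several lists, so the counts are not separate. With and without it, these were 3 of 4 and 4 of 5 for the proton pump, and 2 of 2 and 7 of 9 for autophagy. The folliculin list had 3 of 6 and 7 of 11, and feedback 2 of 4 and 7 of 8. These denominators are genes with a promoter window, tested or not, and the 8 include Ppargc1a, which was not tested. Kinases and others had 1 of 2 and 4 of 13, and osteoclast targets 1 of 1 and 1 of 5. A match is a description of the letters and not evidence of binding.

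Reads recovered from the deposited values and summed over genes came to 17856715 to 21353207 in the 8 libraries. Of the 11675 genes tested, limma called 2671 higher and 2773 lower in the double knockout at an adjusted p below 0.05, together 46.6%. Cdk19 had 342 to 396 in double knockout libraries, against 1295 to 1682 in control libraries (log2 -1.95, limma adjusted p = 2.95e-08). Cdk8 had 294 to 429 in double knockout libraries, against 408 to 466 in controls (log2 -0.35, limma adjusted p = 0.0374). The Cdk8 call was kept under 7 of 18 alternative settings, and it was lost when control replicate 1, 2 or 4 or double knockout replicate 2, 3 or 4 was left out (limma adjusted p between 0.0551 and 0.104). The total of a gene counts its exons whether or not they are floxed. Mitochondrially encoded genes took 2.60%, 2.98%, 4.27% and 4.19% of reads in double knockouts 1 to 4, and 2.77% to 3.52% in controls, so that double knockouts 1 and 2 stood apart from 3 and 4. Macrophage markers were abundant in every library, with Lyz2 at 92772 or more, and 4 of 10 were higher and 5 lower. Monocyte markers summed to 410 to 509 in double knockouts and 2348 to 2809 in controls, with 0 of 6 tested members higher and 4 lower. Neutrophil markers summed to 463 to 764 in double knockouts and 1953 to 3455 in controls, with 8 of 8 tested members lower. The part of these cells in the results that follow was not tested.

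None of the 4 MiT/TFE genes was called higher or lower in the double knockout, against 46.6% of all genes tested. At an unadjusted p below 0.05, limma likewise called 0 of the 4, and edgeR and DESeq2 called 0 of the 4 on the recovered reads. The groups of 4 libraries overlapped for each of the 4 factors, whereas they did not overlap for 42.9% of tested genes. The fitted log2 fold changes lay between -0.01 and -0.13, and those of Tfec and Tfe3 crossed 0 under some alternative settings, reaching at most 0.005 for Tfec and 0.011 for Tfe3. The median of the 4 was -0.08 against 0.005 over all genes tested. In bulk RNA, fewer cells of a type and less RNA per cell cannot be told apart, so a level here is a mean over all cells in the culture.

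Tfe3 was the most abundant member per length and the steadiest. Tfe3 (ENSMUSG00000000134, mm10 chromosome X, 7762560 to 7775202, + strand) is known as a factor that acts beside Tfeb in lysosome and autophagy control and in macrophage activation. It had normalized counts of 2678, 2725, 2931 and 2902 in double knockouts 1 to 4, against 2877, 2809, 2854 and 2775 in controls 1 to 4. Double knockouts 1 and 2 lay below every control library and 3 and 4 above every one, the same division that the share of mitochondrial reads showed. The part of that division in the Tfe3 values was not tested. The means were 2809 ± 126 in double knockouts and 2829 ± 45.3 in controls (SD, n = 4 each). The log2 fold change was -0.01 (SE 0.06, limma adjusted p = 0.889), and the 95% confidence interval of the fold ran from 0.911 to 1.08. Only 2.17% of the tested genes had a fitted change as small or smaller. Its direction turned to 0.011 without double knockout replicate 1 and 0.003 without replicate 2, neither of them called.

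Mitf, the melanocyte and osteoclast factor of the family, came second in abundance. It is encoded on mm10 chromosome 6 (ENSMUSG00000035158, 97807052 to 98021349, + strand). The double knockout libraries 1 to 4 had 1273, 1599, 1177 and 1244 normalized counts, and the controls 1 to 4 had 1357, 1372, 1374 and 1481. Double knockouts 1, 3 and 4 were lower than all controls, and double knockout 2 was higher than all of them. Mitf thus averaged 1323 ± 188 in double knockouts and 1396 ± 57.3 in controls (SD, n = 4 each). The log2 fold change was -0.09 (SE 0.09, limma adjusted p = 0.474), and the 95% confidence interval of the fold was 0.818 to 1.08. Without double knockout replicate 2 the change was -0.18 and still not called (limma adjusted p = 0.0688). With any other double knockout library or any control left out, it lay between -0.10 and -0.03.

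Tfeb, known as a regulator of lysosomal genes, was likewise not called. Tfeb (ENSMUSG00000023990, mm10 chromosome 17, 47737030 to 47792419, + strand) had 581, 544, 566 and 685 normalized counts in double knockouts 1 to 4, against 622, 676, 610 and 580 in controls 1 to 4. Double knockouts 2 and 3 lay below every control, and double knockout 4 was the highest of the 8 libraries. The means were 593.9 ± 62.6 in double knockouts and 621.9 ± 40.1 in controls (SD, n = 4 each), with a log2 fold change of -0.07 (SE 0.10, limma adjusted p = 0.58). The fold had a 95% confidence interval of 0.824 to 1.1.

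Tfec, the member known for its expression in macrophages, was the least abundant and the least precisely measured. Tfec (ENSMUSG00000029553, mm10 chromosome 6, 16833373 to 16898441, - strand) rested on 119 to 196 reads per double knockout library and 152 to 187 per control library. Its normalized counts were 116, 152, 196 and 160 in double knockouts 1 to 4, against 170, 181, 176 and 147 in controls 1 to 4. Double knockout 1 was the lowest and double knockout 3 the highest of all 8. Tfec averaged 155.8 ± 33.0 in double knockouts and 168.5 ± 15.2 in controls (SD, n = 4 each), a log2 fold change of -0.13 (SE 0.17, limma adjusted p = 0.553). The 95% confidence interval of the fold, 0.706 to 1.18, was the widest of the family. The direction rested on double knockout replicate 1, without which the log2 fold change was 0.002, and it was 0.005 under quantile normalization.

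**Figure D1:**
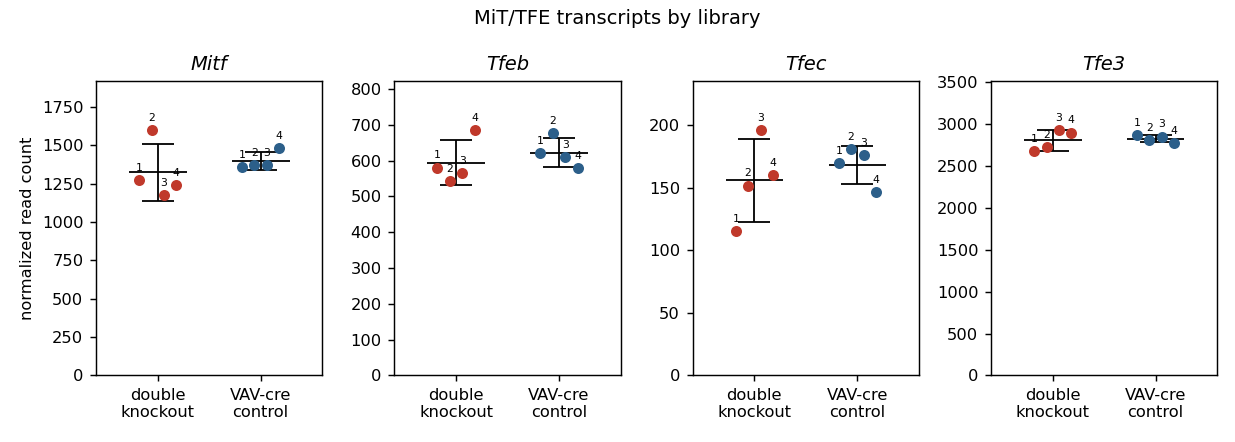
Normalized read count of Mitf, Tfeb, Tfec and Tfe3 in each library, on linear axes that start at 0, with double knockout libraries in red at the left and VAV-cre controls in blue at the right of each panel. Points are libraries with their replicate number, the long bar is the mean and the whiskers are 1 SD (n = 4). Points of the double knockout fall both above and below those of the controls in each panel, and Tfec has the largest relative spread.

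The libraries of the double knockout were spread more widely than the controls for each of the 4 factors. The SD of log2 values was 0.195 in double knockouts and 0.058 in controls for Mitf, and 0.146 and 0.092 for Tfeb. It was 0.312 in double knockouts and 0.135 in controls for Tfec, and 0.065 and 0.023 for Tfe3. Over all genes tested the larger SD fell in the double knockout for 45.2%, and the median SD was 0.147 in double knockouts and 0.165 in controls. Spread of 4 libraries is itself imprecise, and the difference in spread was not tested.

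Levels can be compared between the factors only per length, and the values were therefore divided by the kilobases of annotated exon. Tfe3 stood at 303 ± 13.6 per kilobase in double knockouts and 305 ± 4.89 in controls (SD, n = 4 each). Mitf followed with 214 ± 30.4 in double knockouts and 225 ± 9.24 in controls, then Tfeb with 105 ± 11.0 in double knockouts and 109.7 ± 7.08 in controls. Tfec was lowest at 27.9 ± 5.91 per kilobase in double knockouts and 30.1 ± 2.72 in controls. On this scale no library of any neighbour in that order overlapped the next, in either group. Among 11664 tested genes with a length, Tfe3 was at the 73.4th percentile of the level per kilobase, Mitf at the 66.1th, Tfeb at the 47.7th and Tfec at the 20.6th.

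Of the summed level per kilobase of the 4 factors, Tfe3 made up 46.7% ± 2.39 in double knockouts and 45.6% ± 0.779 in controls. Mitf gave 32.8% ± 3.92 in double knockouts and 33.6% ± 1.5 in controls. Tfeb gave 16.1% ± 1.69 in double knockouts and 16.4% ± 0.958 in controls, and Tfec 4.28% ± 0.885 and 4.49% ± 0.388. The place of Tfeb depended on the length used, since its longest annotated transcript has 2342 bases of the 5669 in all its exons. Divided by the longest transcript, Mitf stood at 271 ± 38.6 in double knockouts and 286 ± 11.7 in controls, and Tfeb at 254 ± 26.7 and 266 ± 17.1, so that these neighbours then overlapped. Tfe3 stayed highest and Tfec lowest on both lengths. Which of the 8 annotated transcripts of Mitf or the 15 of Tfeb were made was not measured, as the table holds gene totals.

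**Figure D2:**
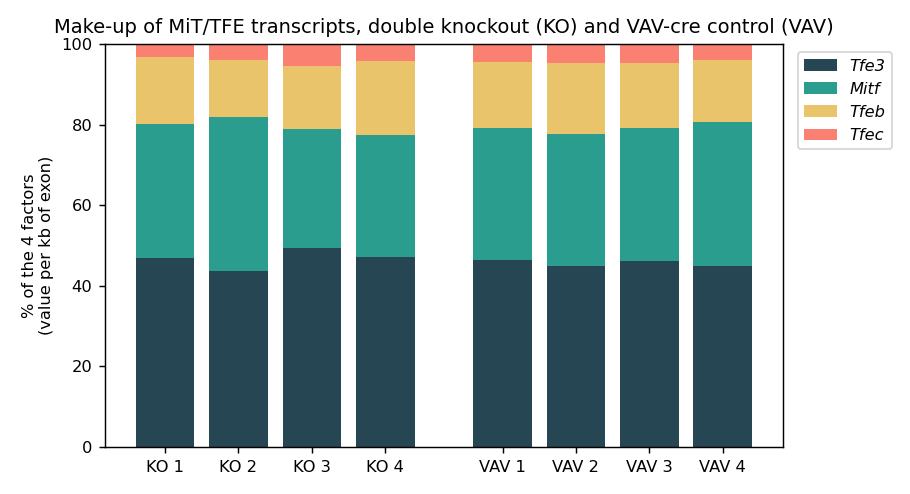
Percent of the summed level per kilobase of exon that each factor contributed, stacked for the 4 double knockout libraries (KO 1 to 4, left) and the 4 controls (VAV 1 to 4, right). Tfe3 is the largest piece in every library and Tfec the smallest, and the mean shares of each factor in the groups differ by less than the SD among double knockouts.

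The balance between members was tested directly with the log2 ratio of 2 members within a library, for each of 6 pairs. No pair passed the exact two-sided permutation test, whose smallest p with 4 against 4 is 0.0286. The log2 ratio of Tfec to Tfe3 was -4.19 ± 0.258 in double knockouts and -4.07 ± 0.122 in controls, a difference of -0.12 (exact p = 0.486), and no pair had a larger difference or a smaller p. The ratio of Mitf to Tfe3 was -1.09 ± 0.239 in double knockouts and -1.02 ± 0.078 in controls (difference -0.07, exact p = 0.571). For Mitf to Tfeb it was 1.15 ± 0.293 in double knockouts and 1.17 ± 0.139 in controls (difference -0.02, exact p = 0.943). The other 3 pairs had differences of -0.06 to 0.06 and exact p of 0.514 to 0.743. Adjusted over the 6 pairs by Benjamini-Hochberg, the exact p-values were 0.892 to 0.943.

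The genes with the profile most like each factor over the 8 libraries were ranked by the root-mean-square difference of centred log2 values, among 10014 genes. For Mitf they were Zmym5 (0.0283), Rfx5 (0.0544) and Dnaja2 (0.0563), where the profile of Mitf itself has a root-mean-square of 0.132. Like Mitf, Zmym5 had its highest value in double knockout 2, at 565, against 408 to 432 in the other double knockouts and 462 to 511 in controls. For Tfeb the nearest 2 were Pak1ip1 (0.0505) and Tmed1 (0.0526), with 0.111 for Tfeb itself. Those of Tfec were Rpl10a (0.0967), Rilpl1 (0.0991) and Haus7 (0.103), with 0.218 for Tfec, so the match was loosest there. The nearest 2 to Tfe3 were Pgam1 (0.0258) and Arhgdia (0.0287), with 0.0426 for Tfe3. Flat profiles lie close to one another by this measure, and none of the genes named here was called between the groups.

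The genes that control where the factors reside were read next. Of 18 genes of the folliculin, Rag GTPase and mTORC1 machinery, 10 were higher and 0 lower, against 22.9% higher and 23.8% lower over all genes tested, with a median log2 fold change of 0.35. The count lower by limma was 1 at an unadjusted p below 0.05 and 0 by edgeR and DESeq2. Rragd, which encodes the Rag GTPase D that brings MiT/TFE proteins to the lysosome, rose most. It had 441, 413, 465 and 401 normalized counts in double knockouts 1 to 4, against 48.2, 99.6, 51.05 and 74.3 in controls 1 to 4. The groups lay far apart, and the fold was 6.30 (log2 2.70, SE 0.21, limma adjusted p = 9.74e-07). Rragc encodes another Rag GTPase, and its promoter holds the core shown above. It rose to 4149 ± 180 in double knockouts, against 3275 ± 127 in controls (log2 0.34, limma adjusted p = 0.000501). Lamtor1, the lysosomal anchor of the Ragulator complex, stood at 4863 ± 244 in double knockouts and 3605 ± 294 in controls (log2 0.43, limma adjusted p = 0.000359). Fnip2, a partner of folliculin, stood at 3602 ± 317 in double knockouts and 2579 ± 202 in controls (log2 0.48, limma adjusted p = 0.000428). Rheb, the GTPase that activates mTORC1, was not called at 2246 ± 92.6 in double knockouts and 2553 ± 275 in controls (limma adjusted p = 0.0812). It was called lower only without control replicate 4 (limma adjusted p = 0.0336), among the 18 alternatives.

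Of 20 genes for kinases, calcineurin subunits, 14-3-3 proteins, the exportin and others that act on the factors, 11 were not called, 6 were higher and 3 lower. Mcoln1, among the 6 higher genes, is also counted in the lysosomal list below. The called share of 45.0% is near the 46.6% of all genes, and the median log2 fold change was 0.07. Xpo1, the exportin through which Tfeb leaves the nucleus, had 1985, 1935, 1601 and 1572 normalized counts in double knockouts 1 to 4. Controls 1 to 4 had 2801, 2712, 3310 and 3729, so all double knockouts lay below all controls (log2 -0.82, SE 0.11, limma adjusted p = 0.000108). Of the genes for 14-3-3 proteins, which keep phosphorylated factors in the cytosol, Ywhah fell to 15111 ± 270 in double knockouts, against 21923 ± 802 in controls (log2 -0.54, limma adjusted p = 5.63e-06). Ywhag rose to 13447 ± 534 in double knockouts, against 9282 ± 170 in controls (log2 0.53, limma adjusted p = 6.78e-06). Akt2, a kinase of growth factor signalling, stood at 2489 ± 60.8 in double knockouts and 1903 ± 103 in controls (log2 0.39, limma adjusted p = 0.000293). The remaining gene called lower was Ppp3ca, a catalytic subunit of calcineurin named after its value was seen, at 4510 ± 205 in double knockouts and 5021 ± 181 in controls (limma adjusted p = 0.0421). The Ppp3ca call was kept under 8 of 18 alternatives. It was lost without control replicate 1, 2 or 3 or double knockout replicate 1, 2 or 3 (limma adjusted p between 0.0537 and 0.109), and with the replicate block (limma adjusted p = 0.118). Ywhae was not called, at 10897 ± 399.5 in double knockouts and 10515 ± 258 in controls (limma adjusted p = 0.458).

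Lysosomal genes known as targets of the factors were mostly higher, although the transcripts of the factors were not called. Of 31 lysosomal CLEAR genes, 22 were higher and 4 lower, against 22.9% higher and 23.8% lower over all genes, and their median log2 fold change was 0.48 against 0.005. Gla, the galactosidase that clears globosides, had 6163, 6305, 6006 and 6108 normalized counts in double knockouts 1 to 4, against 2783, 2777, 2688 and 2890 in controls. Every double knockout was higher than any control, with a fold of 2.21 (log2 1.14, SE 0.05, limma adjusted p = 9.91e-09). Cd63, a tetraspanin of lysosomal membranes, stood at 19429 ± 374 in double knockouts and 7472 ± 488 in controls (log2 1.38, limma adjusted p = 6.51e-09). Psap, the precursor of the saposins, was the most abundant of the genes named from this list at 135054 ± 5025 in double knockouts and 76752 ± 2169 in controls (log2 0.82, limma adjusted p = 2.12e-07). Gusb was not called at 10434 ± 210 in double knockouts and 9557 ± 254 in controls (limma adjusted p = 0.0589), though it was with DESeq2 (adjusted p = 0.0129).

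Of the 4 lysosomal genes called lower, 3 are described here, picked after their values were seen. They were Ctsf, a cathepsin (log2 -0.63), Nagpa, an enzyme that finishes the mannose tag of lysosomal enzymes (log2 -0.57), and Ids, the iduronate sulfatase (log2 -0.33), with limma adjusted p between 0.000423 and 0.0154. Ctsf alone of these lost its call under an alternative, quantile normalization (limma adjusted p = 0.0544). Nagpa stood at 824 ± 50.6 in double knockouts and 1231 ± 152 in controls (limma adjusted p = 0.000423), and its promoter holds the same core as that of Gla. Among the 25 lysosomal genes with a promoter window, 17 held CACGTG, which is 68.0% against 8.09% of all genes with a window. Of these 17, 13 were higher and 2 lower, and of the 8 without the core, 6 were higher and 1 lower. Over all genes tested, 22.9% were higher and 23.8% lower. The list was put together in earlier work partly by the presence of this motif, so its share is a property of the list.

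Genes of the vacuolar proton pump, which acidifies the lysosome, rose in 12 of 14 cases and fell in 0, against 22.9% higher and 23.8% lower over all genes, with a median log2 fold change of 0.35. The count lower stayed at 0 by limma at an unadjusted p below 0.05 and by edgeR and DESeq2. Atp6v1g1, a subunit of the cytosolic sector, had 5583, 5791, 6943 and 6707 normalized counts in double knockouts 1 to 4, against 3898, 3626, 3337 and 2962 in controls. The groups did not overlap, and double knockouts 1 and 2 were again lower than 3 and 4 (fold 1.81, log2 0.86, SE 0.10, limma adjusted p = 1.99e-05). Of the membrane sector, Atp6v0b stood at 6022 ± 317 in double knockouts and 3968 ± 362 in controls (log2 0.60, limma adjusted p = 3.7e-05). Atp6v0c, its proteolipid ring subunit, stood at 12952 ± 762 in double knockouts and 8975 ± 906 in controls (log2 0.53, limma adjusted p = 0.000171). The accessory subunit Atp6ap1 stood at 10846 ± 174 in double knockouts and 8212 ± 72.1 in controls (log2 0.40, limma adjusted p = 3.91e-05). Tcirg1, the pump subunit known from osteoclasts, was not called, at 3543 ± 196 in double knockouts and 3404 ± 503 in controls (limma adjusted p = 0.594).

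Of 15 autophagy targets, 10 were higher and 1 lower, against 22.9% higher and 23.8% lower over all genes, with a median log2 fold change of 0.35. Sqstm1, the cargo receptor p62, had 18289, 17015, 19369 and 18052 normalized counts in double knockouts 1 to 4, against 11538, 11184, 10559 and 10149 in controls. No library of the groups overlapped (fold 1.67, log2 0.74, SE 0.06, limma adjusted p = 1.74e-06). Map1lc3b, Gabarapl1 and Gabarap, which encode proteins joined to autophagosome membranes, had log2 fold changes of 0.74, 0.73 and 0.75 (limma adjusted p = 2.18e-06, 1.19e-06 and 0.000117). Vps35, a retromer subunit, was not called, at 4045 ± 285 in double knockouts and 4209 ± 432 in controls (limma adjusted p = 0.615). The gene called lower was Wipi1, a lipid-binding protein of early autophagosomes, named after its value was seen, at 472 ± 38.3 in double knockouts and 585 ± 63.0 in controls (limma adjusted p = 0.0321). With any of control replicates 2, 3 and 4 or double knockout replicates 2 and 3 left out, 0 genes of the list were lower. The Wipi1 call was also lost under quantile normalization (limma adjusted p = 0.0787), with the replicate block (0.0612) and with averaged pairs of double knockouts (0.0938).

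Of the targets known for feedback on the pathway and for metabolism, 9 of 12 tested were higher and 0 lower, against 22.9% higher and 23.8% lower over all genes, with a median log2 fold change of 0.45. This list shares Flcn, Fnip1, Fnip2, Rragc and Rragd with the folliculin list, so the counts are not separate. Again 0 were lower by limma at an unadjusted p below 0.05 and by edgeR and DESeq2. Gpnmb, a membrane glycoprotein known as a target of Mitf, had 86646, 86883, 75908 and 77746 normalized counts in double knockouts 1 to 4, against 28497, 32403, 32821 and 30548 in controls. All double knockouts exceeded all controls, and double knockouts 1 and 2 were higher than 3 and 4 (fold 2.63, log2 1.396, SE 0.07, limma adjusted p = 1.83e-08). Atf4, a factor of the integrated stress response, stood at 3397 ± 246 in double knockouts and 2227 ± 268 in controls (log2 0.61, limma adjusted p = 0.000147). Hif1a, the hypoxia factor, was not called at 2202 ± 106 in double knockouts and 2215 ± 250 in controls (limma adjusted p = 0.98). Ppargc1a was not tested, with at most 4.001 in any library.

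**Figure D3:**
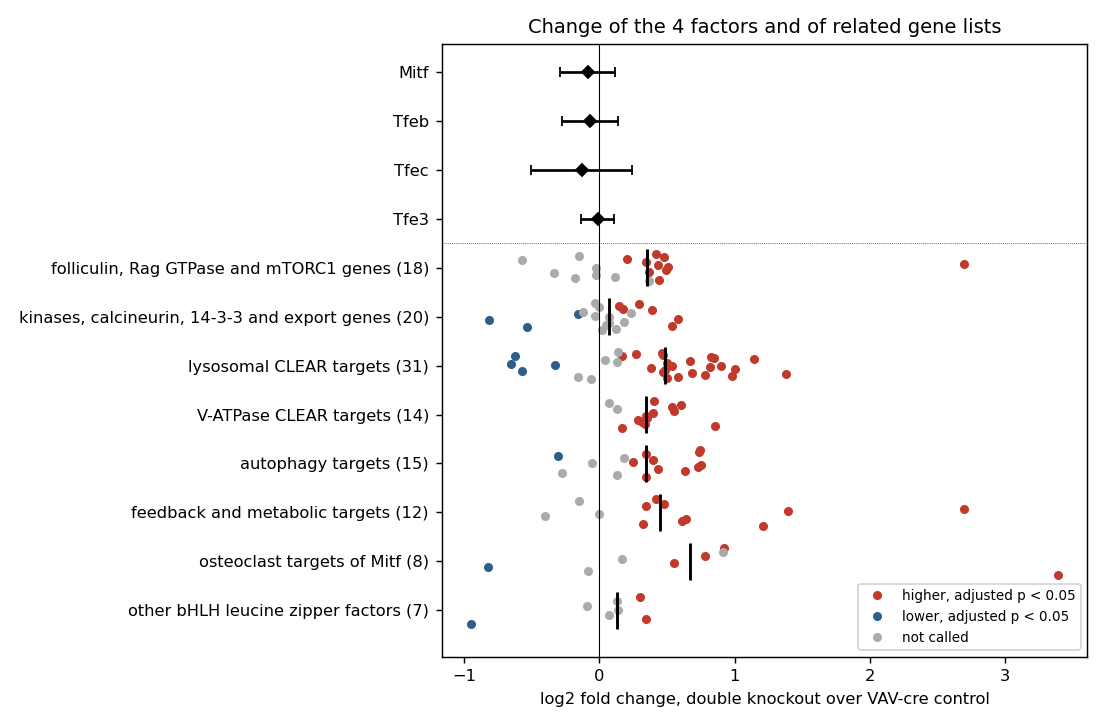
Log2 fold change, double knockout over control, of the 4 factors (black diamonds with 95% confidence intervals, n = 4 per group) and of every tested gene of the related lists (points, with the number tested in parentheses; red higher, blue lower, grey not called; the black bar is the list's median). The intervals of the 4 factors include 0, while the medians of the lysosomal, proton pump, autophagy and feedback lists lie between 0.346 and 0.482. Vertical offsets within a row only separate the points.

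Targets of Mitf from other cell types were read as well. Of 10 osteoclast targets, 8 were tested, 4 of these were higher and 1 lower, together 62.5% against 46.6% of all genes, and the median log2 fold change was 0.67. Clcn7 is also counted in the lysosomal list and Atp6v0d2 in that of the proton pump. Itgb3, the beta chain of the vitronectin receptor, had 381, 468, 376 and 398 normalized counts in double knockouts 1 to 4, against 38.3, 29.0, 47.7 and 37.6 in controls. The groups were separated by a fold of 10.6 (log2 3.39, SE 0.17, limma adjusted p = 2.56e-08). Acp5, the tartrate-resistant phosphatase, stood at 299.5 ± 34.7 in double knockouts and 157.5 ± 16.9 in controls (log2 0.92, limma adjusted p = 0.000138). Clcn7, a lysosomal chloride-proton exchanger whose core is shown above, stood at 3294 ± 251 in double knockouts and 1919 ± 192 in controls (log2 0.78, limma adjusted p = 1.24e-05). The fourth gene called higher was Atp6v0d2, a subunit of the proton pump, at 353 ± 6.73 in double knockouts and 240 ± 15.3 in controls (limma adjusted p = 0.000746). Tnfrsf11a, the receptor RANK, fell to 2812 ± 222 in double knockouts, against 4975 ± 118 in controls (log2 -0.83, limma adjusted p = 9.52e-07). Ostm1, the partner of Clcn7, was not called (log2 0.16, limma adjusted p = 0.0578), but was called higher under 3 of 18 alternatives. These were the fit without double knockout replicate 3 (limma adjusted p = 0.0402), quantile normalization (limma adjusted p = 0.0489) and DESeq2 (adjusted p = 0.0389). Summed osteoclast markers ranged from 662 to 757 in double knockouts and 516 to 616 in controls, with 2 of 5 tested higher and 2 lower, and Calcr was listed at 0 in every library. The part of osteoclast-like cells in these values was not tested.

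Melanocyte targets of Mitf were close to 0 in both groups. Of 7, only Pmel was tested, at 2.01 to 12 in double knockouts and 2.95 to 33.8 in controls (log2 -0.62, limma adjusted p = 0.558). Tyrp1, Mlana and Slc45a2 were listed at 0 in every library, and no library exceeded 25.3 for the other 3. All 4 of these genes with a promoter window, Dct, Trpm1, Tyr and Tyrp1, held the M-box core, against 4.31% of all genes. The M-box is known from pigment genes such as these, so this share is a property of the list. Mast cell markers, another setting of Mitf, summed to 4.87 to 17.1 in double knockouts and 13.3 to 71.4 in controls, with Tpsb2, Tpsab1, Mcpt4 and Cma1 listed at 0.

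Other basic helix-loop-helix leucine zipper factors, which read related E-boxes, were set beside the family. Of 8 such genes 7 were tested, 2 were higher and 1 lower, together 42.9% against 46.6% of all genes, with a median of 0.13. Usf1, an E-box factor of broad expression, stood at 1574 ± 152 in double knockouts and 1276 ± 63.3 in controls (log2 0.30, limma adjusted p = 0.0103). Srebf2, the regulator of cholesterol synthesis, stood at 3081 ± 216 in double knockouts and 2429 ± 233 in controls (log2 0.34, limma adjusted p = 0.00415). Tfap4 fell to 106 ± 17.6 in double knockouts, against 206 ± 30.7 in controls (log2 -0.95, limma adjusted p = 0.00067). Usf2 was not called, at 2470 ± 159 in double knockouts and 2254 ± 159 in controls (limma adjusted p = 0.15).

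**Figure D4:**
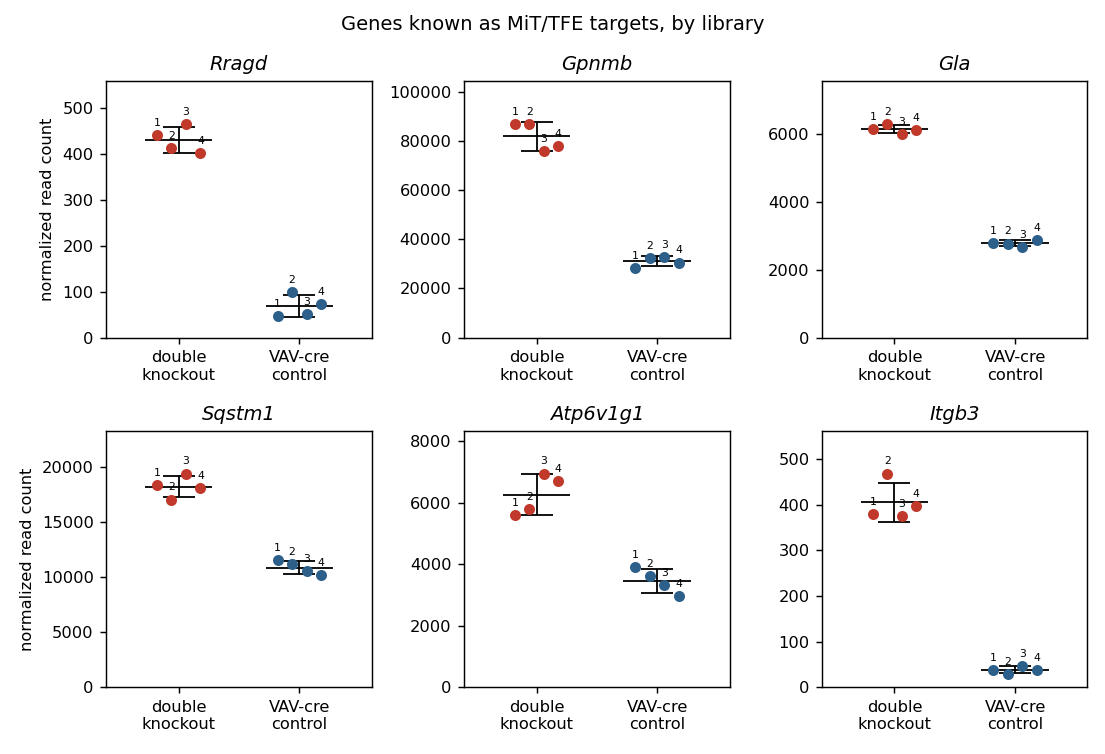
Normalized read count of 6 genes known as MiT/TFE targets in each library, on linear axes that start at 0, with double knockouts in red at the left and VAV-cre controls in blue at the right of each panel (points are libraries with replicate number, bars are mean and SD, n = 4). The groups do not overlap for Rragd, Gpnmb, Gla, Sqstm1, Atp6v1g1 and Itgb3. These genes were picked from the called genes with the smallest adjusted p of their lists. Groups did not overlap for 42.9% of all genes tested.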

How the data were processed

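Paired reads of 150 bases from polyadenylated RNA were sequenced, per the labels' protocols, and the submitters' processing notes name Salmon 1.4.0, DESeq2 and build mm10. Strand use, the annotation and the summing of transcripts to genes were not given in the sources used here. No annotated gene shares exon bases with the 4 factors.

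The deposited values are a normalized signal per gene and library, not counts, as the authors gave them. Multiplying by a size factor (0.901 to 1.04) gave whole reads for 100% of values within 0.01. These recovered reads gave the totals over genes, which are not the number of reads sequenced, and served edgeR 4.0.16 and DESeq2 1.42.0 as alternatives. Of all genes, edgeR called 2620 higher and 2748 lower, and DESeq2 2790 higher and 2889 lower. The code was tested on simulated data.

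The fit covered genes that reached 10 in 4 or more libraries and used limma 3.58.1 (R 4.3.3) on log2(value + 1) with trend and robust options, two-sided, with genotype alone. P-values were adjusted by Benjamini-Hochberg over all genes tested, with a threshold of 0.05. Ratios were compared by exact permutation over 70 regroupings. P-values measure the spread between libraries, which may be technical.

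Of the 34432 rows, 34372 matched the mm10 annotation that gave lengths. The factors and lists were chosen with earlier results of these data known. Always named were the 4 factors, Cdk8 and Cdk19. From each list came up to 4 called genes with the smallest adjusted p and the most abundant gene not called, and from the likeness ranking 3 genes per factor with a mean of at least 50. A few genes so chosen are not reported here.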

Additional observations from a re-analysis of the deposited data

Results flagged for a closer look

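In 6 of 147 groups of 4 libraries examined, a single library lay far from the other 3 relative to the range, and chance gives about 1 in 20. Mitf was at 1481 in control replicate 4, above 1357 to 1374 in the other controls. Akt2 was at 1750 in control replicate 3, below the other 3. Zmym5, the gene most like Mitf in profile, was at 564.9 in double knockout replicate 2, and Tmed1, among those most like Tfeb, at 310.9 in double knockout replicate 4. S100a9, a neutrophil marker, was at 113.6 in double knockout replicate 1. Ids, the iduronate sulfatase, was at 2516 in control replicate 4, above the other controls.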

How the results depend on the processing

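None of the 4 factors was called under any of 18 alternatives, where adjusted p was 0.0688 to 0.807 for Mitf, 0.246 to 0.883 for Tfeb, 0.25 to 0.993 for Tfec and 0.712 to 0.976 for Tfe3. Leaving out each library in turn gave log2 fold changes of -0.181 to -0.034 for Mitf, -0.14 to -0.029 for Tfeb, -0.25 to 0.002 for Tfec and -0.032 to 0.011 for Tfe3. Quantile normalization, which moved the median of all genes to 0.054, gave 0.005 for Tfec. Replicate numbers showed no sign of a pairing, with correlations of -0.053, 0.032, -0.036 and -0.043 between same-numbered libraries. Between differently numbered libraries of the 2 groups they were -0.191 to 0.146. This check cannot show that no pairing existed, as the labels do not give the origin of the libraries. In this balanced design a replicate block cannot move a fold change, so only its p-values bear on the calls. With the block, limma adjusted p was 0.513 for Mitf, 0.651 for Tfeb, 0.572 for Tfec and 0.913 for Tfe3. It called 2215 genes higher and 2434 lower. Over single libraries left out, ratio differences were -0.151 to 0.08 for Mitf over Tfeb, -0.073 to 0.217 for Mitf over Tfec and -0.063 to 0.202 for Tfeb over Tfec. With the longest transcript as length, Tfe3 made up 43.8% in double knockouts and 42.6% in controls, Mitf 26.7% and 27.3%, and Tfeb 25.0% and 25.3%.

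The Cdk8 change (limma) was -0.35 without a filter (adjusted p = 0.055), without trend and robust options (0.0501) and with the replicate block (0.0517), -0.337 with double knockout pairs 1 and 2 and 3 and 4 averaged (0.0517), -0.273 under quantile normalization (0.0867), and -0.457 to -0.276 with single libraries left out (0.00779 to 0.104). Autophagy targets called lower numbered 0 under quantile normalization, the replicate block and averaged pairs, and 0 to 1 with libraries left out. Folliculin list genes called lower numbered 0 to 1 with libraries left out, and osteoclast targets called lower numbered 2 without a filter. Among named genes that were not called, quantile normalization turned the direction of Ywhae (-0.007), Hif1a (0.016), Rfx5 (0.026) and Rilpl1 (0.019). Single libraries left out gave -0.01 to 0.138 for Tcirg1, -0.117 to 0.002 for Vps35, -0.053 to 0.069 for Hif1a, -0.075 to 0.032 for Pak1ip1 and -0.04 to 0.019 for Pgam1. The causes were not tested. Tfec, at 119 to 196 reads per library, was the factor most limited by depth.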

Other observations

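Osteoclast markers differed in direction, with Acp5 higher and Ocstamp and Mmp9, which are not on the list of Mitf targets, lower. Ocstamp, a fusion protein, stood at 17.5 ± 6.53 in double knockouts and 62.6 ± 11.4 in controls (log2 -1.86, limma adjusted p = 0.000902), and Mmp9, a gelatinase, at 7.21 ± 4.67 in double knockouts and 70.1 ± 34.1 in controls (log2 -3.28, limma adjusted p = 0.000735). Dcstamp, also needed for fusion and on the list of Mitf targets, was not tested, at 0.9745 to 8.003 in double knockouts and 8.68 to 32.4 in controls. These genes were picked out after their values were seen.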
